A study of Mus musculus with 13 samples.

Results

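Transcription factors that drive the maturation of stratified squamous epithelium were followed in mouse NUT carcinoma (mNC), a poorly differentiated squamous cancer. The 9 genes, Klf4, Klf5, Grhl1, Grhl2, Grhl3, Ovol1, Tfap2a, Tfap2c and Zfp750, were listed by symbol for their known role. No threshold on a measured value was used, but earlier results of these data were known. They are 9 of 55332 genes with values, and each of the 9 was tested in every comparison, because the lowest count of any of them in any tumor was 166, for Grhl3 in oral WT tumor 3.

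Bulk RNA of 13 tumors was sequenced to ask what loss of Sox2, a transcription factor of squamous progenitors, does to mNC. All 4 groups carry NCT+/-, the Cre-dependent alleles that start these tumors, so no group is free of the oncogene. The 4 oral WT tumors are labelled KRT14-Cre; NCT+/-, and the 2 oral Sox2 KO tumors are labelled KRT4Cre; NCT+/-; Sox2fl/fl, although the methods name KRT14-Cre for both. The 4 pancreatic WT tumors are Pdx1-Cre; NCT+/-, and the 3 pancreatic KO tumors, labelled Pdx1-Cre; NCT+/-; Sox2fl; fl, also carry floxed Sox2. KRT14-Cre acts in the basal layer of stratified epithelia and Pdx1-Cre in the pancreatic lineage, and Sox2 is deleted in cells that express Cre, not in the stroma. Ages and sexes are not given in the labels. Each sample is labelled as a numbered tumor without a mouse of origin, so the p-values measure the spread between these tumors.

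Squamous epithelium renews from a basal layer, whose cells move up, leave the cell cycle and make keratins, desmosomes and a cornified envelope. KLF4, a zinc finger factor, is required for the barrier of the skin, whereas KLF5 acts largely in proliferating basal cells. The grainyhead-like factors GRHL1, GRHL2 and GRHL3 bind a shared motif and control junction and barrier genes, OVOL1 restrains the proliferation of cells that leave the basal layer, ZFP750 acts downstream of p63 in late differentiation, and AP-2α (Tfap2a) and AP-2γ (Tfap2c) act in early epidermal commitment and in keratinocyte gene expression.

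To show what precedes the genes whose levels moved together in these tumors, the 250 bases before the RefSeq start are printed 5′ to 3′ for Grhl1 and Grhl3, and for Klf4, which followed them less closely in the pancreas. RefSeq (GRCm38.p6) promoters were matched for 4 of the 9 genes, Klf4, Grhl1, Grhl3 and Tfap2a. The windows are chr12:24572037-24572286 on the plus strand for Grhl1, chr4:135573633-135573882 on the minus strand for Grhl3 and chr4:55532476-55532725 on the minus strand for Klf4. Capitals mark letters that match, on either strand, a grainyhead-like motif (AACNGGTT), an AP-2 motif (GCCNNNGGC), a KLF motif (GGGNGNGG) or an OVO motif (CCGTTA), and neighbouring matches of 1 motif may overlap.
Grhl1: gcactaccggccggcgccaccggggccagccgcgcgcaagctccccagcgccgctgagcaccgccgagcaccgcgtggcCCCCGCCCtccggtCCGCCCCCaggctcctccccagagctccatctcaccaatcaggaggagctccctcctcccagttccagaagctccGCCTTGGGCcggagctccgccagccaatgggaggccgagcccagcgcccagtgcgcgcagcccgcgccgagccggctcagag
Grhl3: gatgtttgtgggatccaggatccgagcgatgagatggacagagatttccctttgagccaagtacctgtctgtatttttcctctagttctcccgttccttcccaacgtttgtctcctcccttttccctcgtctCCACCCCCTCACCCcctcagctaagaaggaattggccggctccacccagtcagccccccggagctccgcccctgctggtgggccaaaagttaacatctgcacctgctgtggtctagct
Klf4: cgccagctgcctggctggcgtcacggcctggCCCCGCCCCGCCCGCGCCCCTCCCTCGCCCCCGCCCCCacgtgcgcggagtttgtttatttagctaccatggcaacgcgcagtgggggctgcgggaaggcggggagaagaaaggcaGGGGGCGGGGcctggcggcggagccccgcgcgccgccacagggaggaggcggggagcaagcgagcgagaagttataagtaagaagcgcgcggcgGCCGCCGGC

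The Klf4 window held 9 KLF matches and 1 AP-2 match at 74% G and C, the Grhl1 window held 2 KLF matches and 1 AP-2 match at 75.6%, and the Grhl3 window held 2 KLF matches at 56%. The Tfap2a window, chr13:40734921-40735170 on the minus strand, lies inside the longer GENCODE gene and held no match at 47.6%. The letters are common: of 32851 windows of this length, 45.9% held a KLF match, 13.7% an AP-2 match, 2.18% an OVO match and 1.79% a grainyhead-like match. These matches describe letters, not bound sites.

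The libraries held 29394258 to 40420228 estimated counts in oral WT tumors, 40964533 to 46134830 in pancreatic WT and 89562790 to 120482829 in pancreatic KO, and 11735315 and 20432164 in oral KO. Depth thus went with genotype in both tissues without overlap, lower in oral KO and higher in pancreatic KO. Its part in the KO differences below was not tested. Sox2 counts were at most 2 in each KO tumor and at least 410 in each WT tumor, matching every label. Oral KO tumor 1 stood apart: 59.5% of its counts fell in protein-coding genes against 84.5% to 91.7% in the other 12 tumors, and 16.6% fell in the 7SL genes Rn7s1 and Rn7s2 against at most 6%. Oral WT tumor 4 and both oral KO tumors held skeletal muscle RNA, with 20 muscle genes summing to 696.6, 6216 and 3456 CPM (counts scaled to the library total) against 23.9 to 40.4 CPM in oral WT tumors 1 to 3. Pancreatic KO tumor 3 held 287.5 CPM over 15 acinar genes against 4.75 to 15.5 CPM in the other pancreatic tumors. Trp63, the p63 gene that defines squamous epithelium, lay between 439.8 and 1044 CPM in every tumor, and Krt5, a basal keratin, between 1135 and 6775 CPM. In bulk tumors fewer squamous cells and less RNA per cell cannot be told apart, and this holds for every level below.

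Klf5 had the highest level of the 9 genes in each group when counts were divided by exon length and scaled to a common total (TPM). Its mean was 151.9 ± 85.5 TPM (SD, n = 4) in oral WT, 275.3 ± 35.5 (n = 4) in pancreatic WT and 332.1 ± 73.3 (n = 3) in pancreatic KO. In oral KO it had 29.6 and 64.7 TPM. In oral WT the order continued with Klf4 at 69.2, Zfp750 at 63.5, Tfap2a at 42.0, Tfap2c at 38.2, Grhl2 at 27.1, Grhl1 at 23.8, Grhl3 at 16.0 and Ovol1 at 11.9 mean TPM, and every neighbour in that order overlapped the next over the 4 tumors. The pancreatic WT tumors were more sharply ordered. Klf5 there lay above Zfp750 (112.1 ± 19.3) and Klf4 (106.9 ± 59.1), both lay above Grhl3 (39.7 ± 10.4), Tfap2a (39.3 ± 6.16) and Grhl1 (34.4 ± 5.34), and these lay above Grhl2 (19.2 ± 4.70), Ovol1 (13.2 ± 3.34) and Tfap2c (11.3 ± 3.87 TPM). No tumor of a later tier reached the tier above it, while genes within a tier overlapped. With the longest transcript of each gene in place of all exons Klf5 remained above the rest (347.2 to 445.1 TPM), but the lower tiers met, Klf4 (from 56.7) with Tfap2a (to 58.6) and Grhl3 (from 21.4) with Grhl2 (to 35.1). Because short RNAs such as 7SL weigh heavily in TPM and oral KO tumor 1 held most of them, groups were compared in CPM scaled by trimmed means, which is the scale of all levels that follow.

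**Figure D1:**
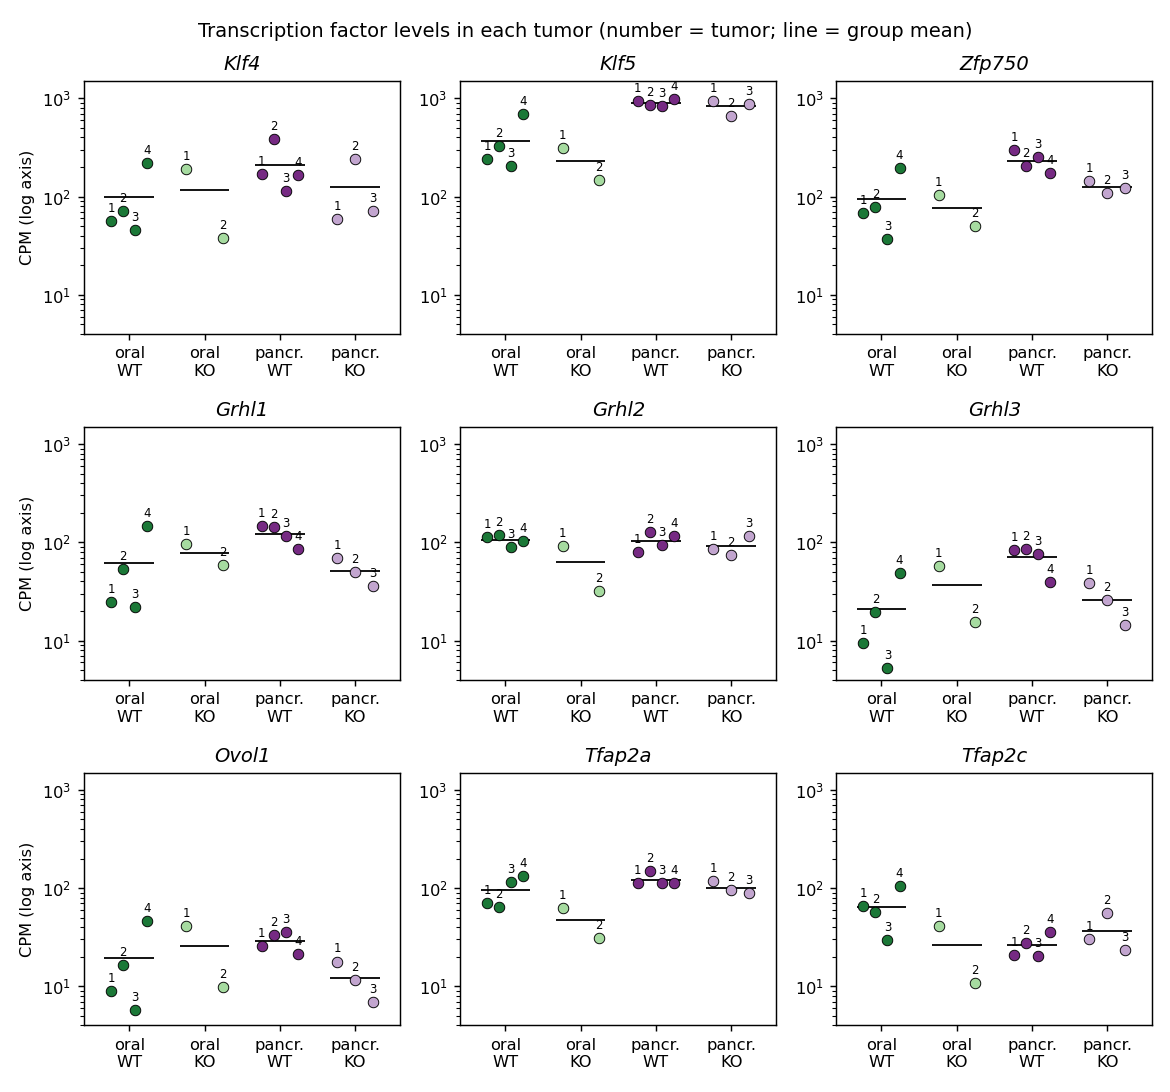
Level of each transcription factor in each of the 13 tumors, in CPM on a log axis, with 1 point per tumor, its number beside it and a line at the group mean. Grhl1, Grhl3, Ovol1 and Zfp750 sit lower in all 3 pancreatic KO tumors than in all 4 pancreatic WT tumors, and oral WT tumor 4 is the highest oral WT tumor for every gene except Grhl2.

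Among pancreatic tumors, loss of Sox2 went with lower levels of Grhl1, Grhl3, Ovol1 and Zfp750, at 0.424, 0.369, 0.419 and 0.540 of the WT level. None of these differences passed the threshold used throughout, an adjusted p under 0.05 with a log2 fold change beyond 1 in either direction. Klf5, Grhl2 and Tfap2a had fold changes between 0.835 and 0.921 and overlapped between the groups. Of all genes tested, 0.629% were called in this comparison, 0.337% higher and 0.292% lower in KO.

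Grhl1 (ENSMUSG00000020656, chr12:24572283-24617391, plus strand), preceded by the first sequence above, had 145.1, 141.8, 116.3 and 85.9 CPM in pancreatic WT tumors 1 to 4 and 68.8, 50.0 and 36.0 CPM in KO tumors 1 to 3. The highest KO tumor lay below the lowest WT tumor. The log2 fold change was -1.24 (SE 0.26, 95% interval -1.83 to -0.64), with an adjusted p of 0.0813 by edgeR's quasi-likelihood test.

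Grhl3 (ENSMUSG00000037188, chr4:135541888-135573630, minus strand), the grainyhead-like factor of terminal differentiation and wound repair, had 83.1, 85.8, 75.8 and 39.5 CPM in the WT tumors and 38.2, 25.8 and 14.3 CPM in the KO tumors. WT tumor 4 and KO tumor 1 nearly met, and the groups did not overlap. The log2 fold change of -1.44 (SE 0.38, interval -2.33 to -0.54) was the lowest of the 9 and had an adjusted p of 0.135 by edgeR.

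Ovol1 (ENSMUSG00000024922, chr19:5549136-5560646, minus strand) had 25.9, 33.6, 35.6 and 21.2 CPM in the WT tumors and 17.9, 11.5 and 6.91 CPM in the KO tumors. KO tumor 3 was again the lowest and WT tumor 4 again the lowest of its group. Its log2 fold change was -1.25 (SE 0.33, interval -2.01 to -0.50), with an adjusted p of 0.127 by edgeR.

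Zfp750 (ENSMUSG00000039238, chr11:121510978-121519333, minus strand) had 294.7, 206.0, 250.3 and 175.2 CPM in the WT tumors and 142.3, 107.7 and 121.8 CPM in the KO tumors. All KO tumors again lay below all WT tumors, but here KO tumor 2 was the lowest. The log2 fold change was -0.89 (SE 0.19, interval -1.33 to -0.45), with an adjusted p of 0.0831 by edgeR. The gene overlaps Tbcd on the other strand, and the reads were counted by strand.

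Klf4 (ENSMUSG00000003032, chr4:55527143-55532466, minus strand) had 168.5, 386.4, 115.0 and 165.3 CPM in pancreatic WT and 58.4, 242.7 and 71.8 CPM in KO. KO tumors 1 and 3 lay below every WT tumor, and KO tumor 2 lay above 3 of the 4. The log2 fold change was -0.74 (SE 0.61, interval -2.17 to 0.69) with an adjusted p of 0.609 by edgeR, and the interval leaves room for a much lower level in KO.

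Klf5 (ENSMUSG00000005148, chr14:99298691-99315036, plus strand) had 940.1, 859.3, 834.9 and 985.9 CPM in WT and 943.6, 657.0 and 879.5 CPM in KO. These groups overlapped, and the interval of the log2 fold change, -0.48 to 0.24 around -0.12, bounds the difference within 1 log2 unit. Grhl2 (ENSMUSG00000022286, chr15:37233036-37363569, plus strand), which sustains epithelial junction genes, had 80.2, 128.0, 92.9 and 114.8 CPM in WT and 84.8, 74.9 and 116.3 CPM in KO.
Its groups overlapped too, with a log2 fold change of -0.16 (interval -0.64 to 0.32). Unlike Grhl1 and Grhl3, Grhl2 was not lowest in KO tumor 3, where it had its highest KO level.

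Tfap2a (ENSMUSG00000021359, chr13:40715302-40738376, minus strand) had 112.4, 150.7, 111.6 and 113.5 CPM in pancreatic WT and 117.8, 96.3 and 89.6 CPM in KO. Its log2 fold change was -0.26 (interval -0.61 to 0.09). Tfap2c (ENSMUSG00000028640, chr2:172549593-172558622, plus strand) had 20.9, 27.7, 20.2 and 35.6 CPM in WT and 30.2, 55.6 and 23.3 CPM in KO. It was the only member with a positive log2 fold change, 0.49 (interval -0.27 to 1.24), and its groups overlapped.

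In counts over this comparison, 0 of the 9 genes were called, and 4 of 9 had an unadjusted p under 0.05 against 15.9% of the 24653 genes tested. The same 4 genes had all KO tumors below all WT tumors, an arrangement that 8.75% of the tested genes showed. Their levels moved together over the 7 pancreatic tumors (Pearson's r of 0.83 to 0.99 between pairs), so they are not 4 separate results. The median log2 fold change of the 9 genes was -0.74 beside 0.02 over all genes. DESeq2, run on the same genes, called 2.94% of all genes lower and 3 of the 9, Grhl1 (adjusted p = 0.00103), Grhl3 (0.00721) and Ovol1 (0.0095). In contrast, an edgeR fit of all 13 tumors with 1 shared spread gave 0 members at an unadjusted p under 0.05, against 12.3% of all genes.

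**Figure D2:**
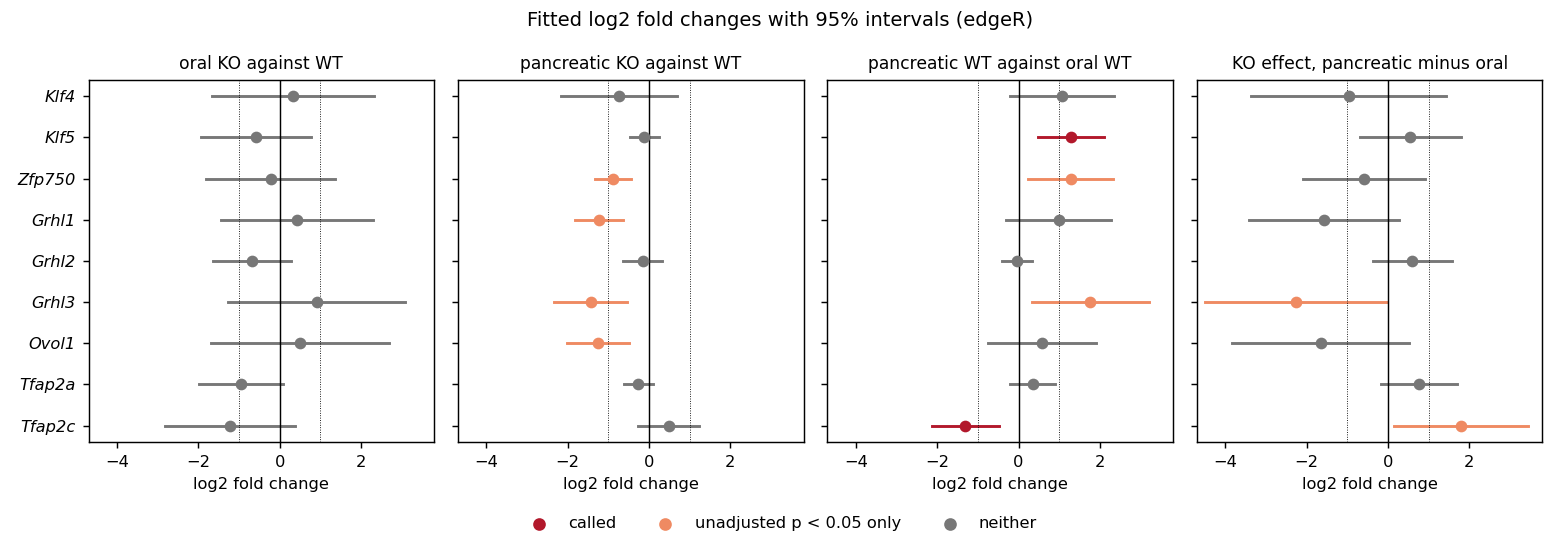
Log2 fold change of each transcription factor with its 95% interval from edgeR in 4 panels, 1 per comparison, where dotted lines mark 1 log2 unit in each direction and colour marks whether the gene was called. The interval of Grhl3, for example, spans -2.33 to -0.54 in pancreatic KO, -1.26 to 3.09 in oral KO and -4.49 to -0.02 in the tissue difference.

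The suprabasal and cornified products, among which targets of these factors are found, lay lower in the pancreatic KO tumors together. Of 35 such genes, 35 had a negative log2 fold change, 23 had an unadjusted p under 0.05 and 3 were called lower, with a median of -1.69. Of all 24653 genes tested, 11696 had a negative value and 2163 a negative value at an unadjusted p under 0.05, and 0.292% were called lower. The 35 genes had a median r of 0.90 to Grhl1 over the pancreatic tumors, so they are not 35 separate results. The number of them called ranged from 1 with protein-coding genes alone to 20 with DESeq2, and was 1 without KO tumor 2 or 3 and 7 without WT tumor 4. Their summed level was 11633 to 21063 CPM in WT and 3157 to 8389 CPM in KO. Krt4 and Krt13, the paired keratins of mucosal suprabasal cells, fell by 3.46 and 3.69 on the log2 scale (adjusted p = 0.00256 and 0.0163, edgeR). Krt4 dropped from a mean of 2249.5 ± 673.8 CPM (SD, n = 4) to 202.7 ± 21.6 (n = 3), and Krt13 from 1668 ± 630.3 to 128.3 ± 54.1 CPM. Krt4 was called in 16 of 16 alternatives and Krt13 in 12 of 16, its call being lost with protein-coding genes alone and without WT tumor 1, KO tumor 2 or KO tumor 3.

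Of 24 other regulators of squamous epithelium, 1 was called lower, Hopx, a homeodomain protein of differentiating keratinocytes, with a log2 fold change of -3.88 (SE 0.59, adjusted p = 0.0453). The call was kept in 6 of 16 alternatives and was lost when any 1 tumor except WT tumor 4 was left out, with values of -3.41 to -4.09. The median of that list was -0.51. Trp63 had -0.32 (adjusted p = 0.525). Of 15 junction and polarity genes, 0 were called, 8 had a lower and 1 a higher value at an unadjusted p under 0.05, and the median was -0.40. Of 18 family paralogs tested, such as Klf6 and Ovol2, 0 were called and the median was 0.11.

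Other tissue markers moved in the same tumors. Of 10 regulators of the mesenchymal state, 9 were tested, 9 were higher in KO and 0 were called, with a median of 0.93, and 12 of 12 fibroblast genes were higher, with a median of 0.81 and summed levels of 2489 to 4233 CPM against 1279 to 2534 in WT. Basal keratinocyte genes summed to 17886 to 21529 CPM in KO and 14501 to 24776 in WT, with a median log2 fold change of 0.13 over 18 genes. The acinar genes were highest in KO tumor 3, in which Grhl1, Grhl3 and Ovol1 were lowest, and Ctrc, Amy2b and Ptf1a had 3 or fewer counts in every pancreatic WT tumor. The part of these cells in the members' levels was not tested. When KO tumor 3 was left out, the log2 fold changes were -1.03 for Grhl1, -1.14 for Grhl3, -0.97 for Ovol1 and -0.88 for Zfp750.

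In the oral tumors no member passed the test, and the directions were mixed: 4 of the 9 genes had positive and 5 negative log2 fold changes, with a median of -0.22 beside 0.00 over all genes. Of 22342 genes tested, 11.7% were called, 8.81% higher and 2.89% lower in KO, while 0 of the 9 were called by edgeR or DESeq2. All 9 are protein-coding. With protein-coding genes alone, edgeR called 0.116% of 16352 genes higher and 0.0489% lower, and 26.3% had an unadjusted p under 0.05. The share of all genes called thus depends on which genes are counted, and it does not set the members apart. At an unadjusted p under 0.05 there were 0 of 9 by edgeR, against 35.4% of all genes, and 2 of 9 by DESeq2, against 35.7%. The number of calls over all genes moved with the WT tumor left out, in place of 1968 higher and 646 lower. It was 43 and 27 without WT tumor 1, 19 and 17 without WT tumor 2, 912 and 302 without WT tumor 3, and 1877 and 739 without WT tumor 4. The share of all genes at an unadjusted p under 0.05 by edgeR was 28.5% to 36.4% in these fits. The calls did not depend on the WT tumors alone. With same-numbered tumors set in blocks, edgeR called 43 genes higher and 22 lower. When a KO tumor is left out, the KO group has no spread of its own, so those calls are not given.

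Grhl1, Grhl3 and Ovol1 were spread within each oral group. Grhl1 had 24.5, 54.0, 22.1 and 146.0 CPM in oral WT tumors 1 to 4 and 97.2 and 58.3 CPM in KO tumors 1 and 2. Grhl3 had 9.38, 19.6, 5.26 and 48.8 CPM in WT and 57.8 and 15.4 CPM in KO. Ovol1 had 9.02, 16.6, 5.70 and 46.2 CPM in WT and 41.4 and 9.90 CPM in KO. In each of the 3 genes WT tumor 4 and KO tumor 1 were high, WT tumors 1 and 3 were low, and the groups overlapped.

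Zfp750 followed with 68.0, 78.7, 36.8 and 197.0 CPM in WT and 102.8 and 50.1 CPM in KO. Klf4 had 55.7, 72.0, 46.0 and 220.2 CPM in WT and 192.8 and 37.7 CPM in KO. Klf5 had 242.2, 325.9, 205.8 and 691.4 CPM in WT and 309.5 and 148.0 CPM in KO. Their log2 fold changes were -0.22 (interval -1.81 to 1.36), 0.33 (-1.67 to 2.33) and -0.59 (-1.94 to 0.76), and that of Zfp750 turned to 0.08 when counts were scaled on basal keratinocyte genes. That scale set the median of all genes at 0.25.

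The oral log2 fold change of Grhl1 was 0.43 (interval -1.44 to 2.29), of Grhl3 0.92 (-1.26 to 3.09) and of Ovol1 0.50 (-1.69 to 2.69). These rest on oral KO tumor 1. Without it, Grhl1 stood at -0.02, Grhl3 at -0.37, Ovol1 at -0.91 and Klf4 at -1.33, each with an adjusted p of 0.412 or higher by edgeR, the remaining KO tumor being assumed to vary like the WT tumors.

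The AP-2 members and Grhl2 were not high in oral KO tumor 1, although Tfap2a and Tfap2c were also highest in WT tumor 4. Tfap2a had 71.2, 63.5, 114.6 and 133.9 CPM in oral WT and 63.0 and 30.8 CPM in KO. Both KO tumors lay below all 4 WT tumors, by a margin of 0.5 CPM in KO tumor 1, an arrangement shown by 25.5% of tested genes. The log2 fold change was -0.95 (SE 0.44, interval -1.98 to 0.09), with an adjusted p of 0.168 by edgeR. In the edgeR fit of all 13 tumors it was -1.03 with an adjusted p of 0.0385, and 5.77% of all genes were called lower there.

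Tfap2c had 66.0, 57.2, 29.8 and 104.6 CPM in oral WT and 41.3 and 10.8 CPM in KO, and Grhl2 had 113.9, 118.6, 89.7 and 102.9 CPM in WT and 92.5 and 32.2 CPM in KO. In both genes KO tumor 2 was the lowest of the 6 tumors while KO tumor 1 lay within the WT range. The log2 fold changes were -1.21 for Tfap2c (interval -2.81 to 0.38) and -0.68 for Grhl2 (interval -1.63 to 0.28). Without KO tumor 1, they were -2.51 for Tfap2c and -1.66 for Grhl2, with adjusted p of 0.109 and 0.0563 by edgeR.

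Few genes of the related lists were called in oral KO. Krt4 rose by 2.08 (SE 0.41, adjusted p = 0.0268), the 1 of 35 suprabasal genes called, from 306.5 ± 145.3 CPM in WT to 1008.5 and 1419 CPM in KO, and the list's median was 0.45. That call was kept in 8 of 15 alternatives and lost when any 1 tumor except WT tumor 4 was left out (adjusted p = 0.0562 to 0.106). Klf6, a paralog of Klf4 and Klf5 that responds to injury, fell by 1.10 (adjusted p = 0.0459), 1 of 18 paralogs tested, a call kept in 6 of 15 alternatives and, with 1 tumor left out, only without WT tumor 3. Snai2, a repressor expressed in basal cells, fell by 1.72 (adjusted p = 0.0238), 1 of 10 mesenchymal regulators, a call kept in 9 of 15 alternatives but lost without WT tumor 1 or 2 or either KO tumor, while Zeb1 and Zeb2 had 0.73 and 0.83 (adjusted p = 0.102 and 0.15). None of the 24 other squamous regulators or the 15 junction genes was called, with medians of -0.65 and -0.14. All 20 muscle genes were higher in KO, with a median of 3.99 and 3 called, and Pvalb had 3 or fewer counts in every WT tumor. The part of muscle in these values was not tested.

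**Figure D3:**
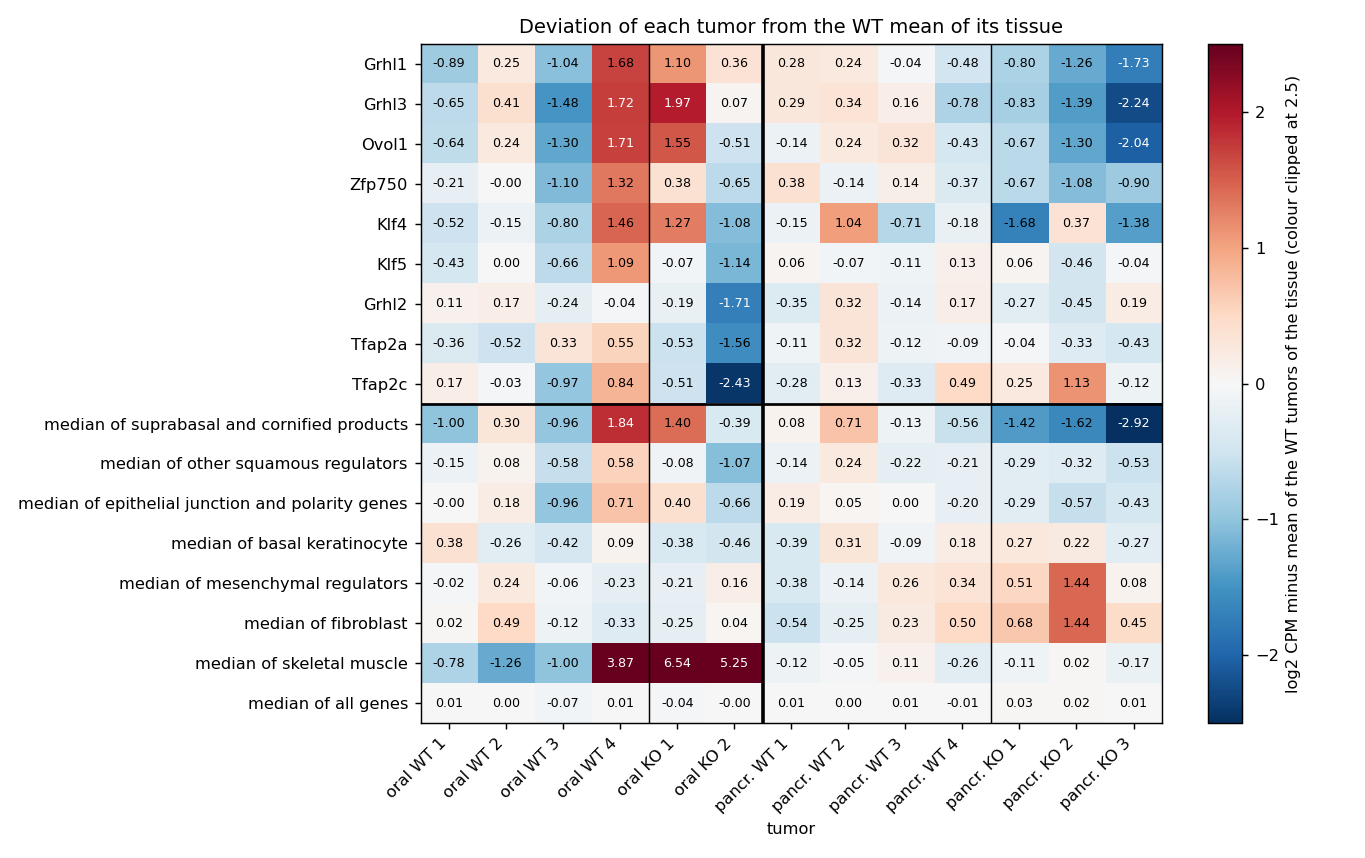
Deviation of each tumor, in log2 CPM, from the mean of the WT tumors of its tissue, for the 9 transcription factors and for the median gene of 7 gene sets and of all genes. Grhl1, Grhl3, Ovol1 and the suprabasal products are raised together in oral WT tumor 4 and oral KO tumor 1 and lowered together in the 3 pancreatic KO tumors, reaching -2.24 for Grhl3 and -2.92 for the suprabasal products in tumor 3, while skeletal muscle is raised by 3.87 to 6.54 in oral WT tumor 4 and both oral KO tumors.

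Between the WT tumors of the 2 tissues, Klf5 was higher and Tfap2c lower in the pancreas, and these were the 2 members called. Of 23164 genes tested, 16.5% were called, 7.24% higher and 9.3% lower in the pancreas. This comparison sets different Cre drivers and tissues side by side, and which of them goes with a difference cannot be told apart.

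Klf5 had 205.8 to 691.4 CPM in oral WT against 834.9 to 985.9 CPM in pancreatic WT, so each pancreatic tumor lay above each oral tumor, as 13.8% of tested genes did. The log2 fold change was 1.30 (SE 0.36, interval 0.49 to 2.11), a 2.47-fold higher level, with an adjusted p of 0.0296 by edgeR. Tfap2c had a log2 fold change of -1.31 (SE 0.36, interval -2.12 to -0.49, adjusted p = 0.0299), at 0.404 of the oral level, and its groups overlapped because oral WT tumor 3, at 29.8 CPM, lay below pancreatic WT tumor 4, at 35.6 CPM. Both calls sat close to the threshold: that of Klf5 was lost when any 1 tumor except oral WT tumor 4 was left out, and that of Tfap2c without oral WT tumor 1, 2 or 4 or pancreatic WT tumor 1, 2 or 3. On a scale set by basal keratinocyte genes Klf5 had 0.38 (adjusted p = 0.361) while Tfap2c had -2.25 (adjusted p = 2.96e-05, edgeR). That scale moved all genes, with a median of -0.96 and 39.7% called lower, so neither change is particular to these 2 genes.

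Grhl3, Zfp750, Klf4, Grhl1 and Ovol1 had positive values that did not pass. Grhl3 had a log2 fold change of 1.77 (SE 0.63, adjusted p = 0.0748), Zfp750 1.28 (SE 0.46, adjusted p = 0.0769), Klf4 1.08 (adjusted p = 0.203), Grhl1 0.99 (adjusted p = 0.249) and Ovol1 0.58 (adjusted p = 0.515). In each of them oral WT tumor 4 lay within or above the pancreatic range. Without that tumor 6 members were called higher, against 8.94% of all genes, with Grhl3 at 2.63, Zfp750 at 1.92, Grhl1 at 1.86, Klf4 at 1.85, Klf5 at 1.81 and Ovol1 at 1.47, and the value of Tfap2c, -0.97, no longer passed. Oral WT tumor 4 is the oral WT tumor with muscle RNA.

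Tfap2a had 0.35 (interval -0.20 to 0.90) and Grhl2 -0.03 (interval -0.40 to 0.34). Grhl2 was thus the member with the closest means between tissues, 106.3 ± 12.8 CPM in oral WT and 103.9 ± 21.4 CPM in pancreatic WT. Scaling on basal keratinocyte genes set the median of all genes at -0.96, and with this general shift, which is not particular to the members, Tfap2a stood at -0.65, Ovol1 at -0.33 and Grhl2 at -1.05, while 698 genes were called higher and 9187 lower in place of 1677 and 2155. The median of the 9 genes was 0.99 beside 0.00 over all genes on the main scale.

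Around them, the junction and polarity genes were higher in pancreatic WT tumors, 12 of 15 called with a median of 1.84, among them St14, which encodes the protease matriptase (1.23, SE 0.19, adjusted p = 0.00286), and Tjp3 (3.41, SE 0.53, adjusted p = 0.00326). Mesenchymal regulators were lower, 5 of 10 called, led by Prrx1 (-2.83, SE 0.20, adjusted p = 2.67e-04) and Twist1 (-4.10, SE 0.51, adjusted p = 0.00133), as were fibroblast genes, 10 of 12 called lower with a median of -2.62. Of the 24 other squamous regulators 6 were called higher, such as Elf3 (4.47, adjusted p = 0.00135), and 3 lower, such as the homeobox genes Dlx3 (-6.18, adjusted p = 5.51e-04) and Dlx5 (-7.05, adjusted p = 6.58e-04).

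The paralogs of the members were split as well, with 3 called higher and 4 lower in the pancreas of 17 tested. Klf6 (1.76, adjusted p = 0.00123) and Klf10 (1.5, adjusted p = 0.00332) were higher, whereas Klf14 (-7.99, adjusted p = 0.00204) and Tfap2b (-3.28, adjusted p = 0.00268) were lower. Suprabasal products were called higher in 8 of 35 genes, led by Krt4 (2.88, adjusted p = 0.00165) and the calmodulin-like Calml3 (1.48, adjusted p = 0.00267), and lower in 2, the desmosomal cadherins Dsg1a (-1.49, adjusted p = 0.0358) and Dsc1 (-2.11, adjusted p = 0.0419). The part of stroma in these differences was not tested.

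Whether Sox2 loss acted differently in the tissues was tested as the difference of the log2 fold changes, pancreatic minus oral. No member was called by edgeR or DESeq2, against 12.3% of 25836 genes by edgeR, 4.85% higher and 7.41% lower, and 2 of 9 had an unadjusted p under 0.05 against 34% of all genes. With protein-coding genes alone, edgeR called 2.02% higher and 2.51% lower, and 27.9% had an unadjusted p under 0.05. Grhl3 had -2.25 (SE 1.02, interval -4.49 to -0.02, adjusted p = 0.144) and Tfap2c 1.80 (SE 0.76, interval 0.14 to 3.45, adjusted p = 0.12), followed by Ovol1 at -1.65 and Grhl1 at -1.58. Without oral WT tumor 4 the differences of Grhl1 (-2.46, adjusted p = 0.0158), Grhl3 (-3.12, adjusted p = 0.0318) and Ovol1 (-2.55, adjusted p = 0.0445) were called, against 9.39% of all genes called lower, and without oral KO tumor 1 they shrank to -1.12, -0.97 and -0.25 while those of Tfap2c (3.09, adjusted p = 0.0435) and Grhl2 (1.59, adjusted p = 0.0304) were called, against 3.1% of all genes called higher. The difference therefore rests on those tumors.

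Among the products, Krt4 (-5.46, SE 0.53, adjusted p = 4.62e-04) and Krt13 (-5.14, SE 0.67, adjusted p = 0.00374) were called in this test and in 20 of 20 alternatives, 2 of 8 suprabasal genes called lower. Hopx (-5.07, adjusted p = 0.0279) and Elf3 (-2.70, adjusted p = 0.0339) were called lower and Vdr, the vitamin D receptor, higher (1.20, adjusted p = 0.0455) among the 24 other regulators. Of the paralogs, Klf15 (1.73, adjusted p = 0.0466) and Klf6 (1.03, adjusted p = 0.0474) were called higher and Klf12 (-2.07, adjusted p = 0.0276) lower. Epcam (1.79, adjusted p = 0.034) was the junction gene and Snai2 (2.12, adjusted p = 0.0381) the mesenchymal regulator called. Of these regulators and junction genes, Klf12 kept its call in 16 and Hopx in 15 of 20 alternatives, and the others in 5 to 11.

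The members did not vary as 1 block. Over the 6 oral and 7 pancreatic tumors, Pearson's r of log2 CPM was 0.95 and 0.99 for Grhl1 with Grhl3, 0.98 and 0.97 for Grhl3 with Ovol1, and 0.84 and 0.91 for Grhl1 with Zfp750. Grhl2 did not follow its family, with r of -0.06 and 0.06 to Grhl1 and 0.09 and -0.03 to Grhl3. Klf4 and Klf5 had r of 0.86 in oral and -0.38 in pancreatic tumors, and Tfap2a with Grhl3 had 0.01 and 0.78. These values describe few tumors that share genotype groups and libraries, so they carry no test.

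The same split appears against the products. The median r to the 35 suprabasal genes was 0.86 in oral and 0.90 in pancreatic tumors for Grhl1, 0.85 and 0.88 for Grhl3, 0.86 and 0.86 for Ovol1 and 0.77 and 0.73 for Zfp750. For Klf4 it was 0.78 and 0.57, for Klf5 0.71 and 0.19, for Tfap2a 0.18 and 0.75, for Tfap2c 0.39 and -0.15 and for Grhl2 0.19 and 0.13. In oral tumors muscle genes moved along, with a median r of 0.72 to Grhl1 and 0.70 to Grhl3, and in pancreatic tumors fibroblast genes moved the other way, at -0.72 and -0.67 and -0.81 for Zfp750, which were not tested as a source of the levels.

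For each member the protein-coding genes most like it were ranked by the lower of the oral and pancreatic r. Those nearest to Grhl1 were Anxa9, Il1f8 and Abca12, the lipid transporter of cornifying cells, each at 0.98, and those nearest to Grhl3 were Aadacl2, Ablim1 and Tmem45b, also at 0.98. Ovol1 was nearest to Tmem45b (0.97), Grhl3 (0.97) and Aadacl2 (0.96), and Zfp750 to Ppfia3 (0.96), Prss8 (0.96), the protease prostasin, and Grid2ip (0.94). Klf4 was nearest to Fchsd1 (0.93), the suprabasal keratin Krt10 (0.92) and Tbc1d23 (0.92).

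Klf5 was nearest to Cyp2d10 (0.84), Shh (0.83) and Acaa1b (0.81), Grhl2 to Slc25a11 (0.95), Pm20d2 (0.90) and Sun2 (0.88), Tfap2a to Cstb (0.92), Atp6v1g1 (0.91) and Yrdc (0.90), and Tfap2c to Timp3 (0.87), Usp8 (0.86) and Hspa1a (0.86). With 6 and 7 tumors and so many genes ranked, high values of this kind arise among unrelated genes.

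Within the grainyhead-like family the makeup per length differed between tumors. Grhl2 took 63.0%, 45.1%, 63.9% and 21.4% of the summed Grhl TPM in oral WT tumors 1 to 4 and 21.9% and 18.9% in KO tumors 1 and 2. In the pancreas it took 14.3%, 20.9%, 18.3% and 31% in WT and 27.4%, 32.2% and 53.7% in KO. Pancreatic KO tumor 3, with the least Grhl3, thus had a Grhl2 share between those of oral WT tumors 2 and 1. The share of Grhl3 was 42.0% ± 6.16 (SD, n = 4) in pancreatic WT and 30.9% ± 9.32 (n = 3) in KO.

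**Figure D4:**
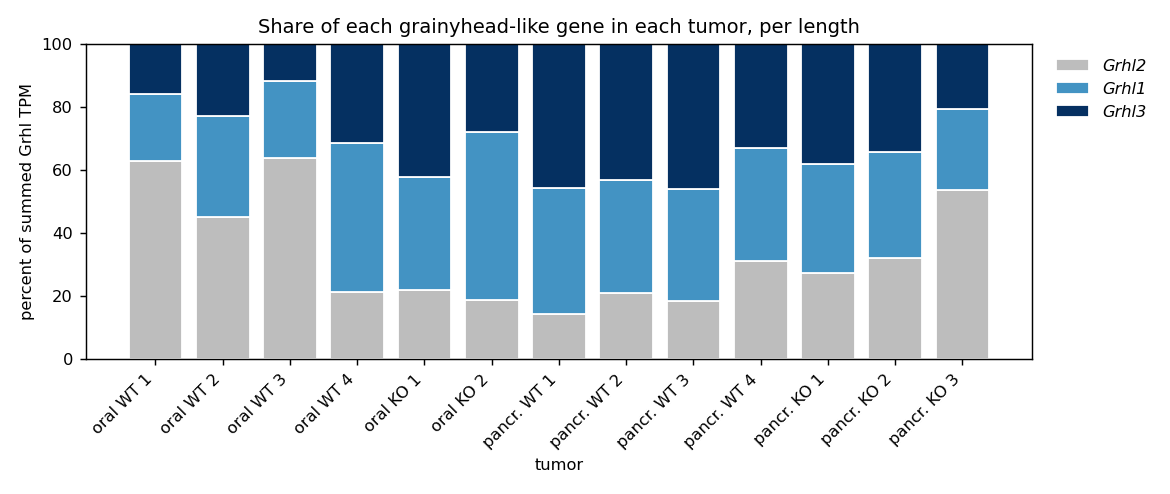
Share of Grhl1, Grhl2 and Grhl3 in their summed TPM in each tumor, in percent, as stacked bars that start at 0. The Grhl2 share is 14.3% to 31% in pancreatic WT tumors, 27.4% to 53.7% in pancreatic KO tumors and 45.1% to 63.9% in oral WT tumors 1 to 3, against 21.4% in oral WT tumor 4.

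Ovol1 outweighed its paralogs in most tumors, at 77.0% ± 9.47 (SD, n = 4) of summed Ovol TPM in pancreatic WT, 55.7% ± 17.8 (n = 3) in pancreatic KO, 68.5% ± 21.7 (n = 4) in oral WT and 82.2% and 91.4% in oral KO. Ovol2 exceeded it in oral WT tumor 3 (57.2%) and pancreatic KO tumor 3 (61.3%), the tumors with the least Ovol1 of their tissue. Of the AP-2 genes, Tfap2a and Tfap2c made up most of the family, Tfap2a taking 50.3% ± 14.1 in oral WT and 76.2% ± 5.17 in pancreatic WT, while Tfap2b took 2.40% ± 1.07 and 0.301% ± 0.0557 and Tfap2d was at 0 in every tumor. Klf5 exceeded Klf4 per length in every tumor except oral KO tumor 1, where Klf4 took 51.5% of the pair, or 40.8% with the longest transcript of each gene in place of all exons.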

How the data were processed

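Total RNA of 13 tumors (4 oral WT, 2 oral Sox2 KO, 4 pancreatic WT, 3 pancreatic Sox2 KO) was depleted of rRNA and sequenced with a stranded kit. The authors trimmed reads with Trim Galore 0.6.10, checked them with FastQC 0.12.1, quantified them with kallisto 0.50.0 on GRCm38 GENCODE transcripts by strand, and summed transcripts per gene with tximport. They deposited estimated counts per gene, not scaled to library size, which were rounded here to whole counts. Identifiers were matched to GENCODE M21, a release older than the authors', for 55141 of 55332 genes with values.

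Comparisons used the quasi-likelihood test of edgeR 4.0.16 in R 4.3.3, with trimmed-mean (TMM) scaling and a filter that kept genes reaching 10 counts in 2 or more of the tumors fitted. Each KO comparison and the WT comparison were fitted on their own groups, the tissue difference on all 13 tumors. Calls needed a Benjamini-Hochberg adjusted p under 0.05 over all genes tested and a log2 fold change beyond 1 in either direction. The cut-offs are those of the study, which applied them to DESeq2 fold changes shrunk by apeglm, whereas the edgeR fold changes here were not shrunk. CPM were counts scaled by library total and TMM factor, and TPM were scaled by the union of exons. A prior count of 2 was added before log2 CPM were correlated. Steps were tested on simulated data. Alternatives were DESeq2 1.42.0 with and without apeglm 1.24.0, its size factors, other count filters, protein-coding genes alone, scaling on basal keratinocyte genes, each tumor left out, a replicate block, and other lengths and scales.

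The members and gene lists were chosen with earlier results of these data known. All 9 members were named, with Sox2 as a label check, up to 2 called genes of the smallest adjusted p per direction in each list of related genes, the 3 most similar genes per member, and leading or absent markers of other cell types. Trp63, Krt5, Zeb1, Zeb2 and Ovol2 were added after their values were seen. Some genes that this rule would name are not reported here. At these depths 3 counts equal 0.0249 to 0.256 CPM, so the spread between tumors and not counting limited precision.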

Additional observations from a re-analysis of the deposited data

Results flagged for a closer look

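Among the 18 sets of 4 WT values (9 members in oral and in pancreatic WT tumors), the gap between an extreme tumor and its nearest neighbour, divided by the range of the group, passed the limit for 4 samples in 2 sets, where chance passes about 1 set in 20. Klf4 in oral WT tumor 4, at 220.2 CPM, stood above the other 3 oral WT tumors at 46.0 to 72.0 CPM, with a gap of 0.850 of the range. Tfap2a in pancreatic WT tumor 2, at 150.7 CPM, stood above the other 3 at 111.6 to 113.5 CPM, with a gap of 0.952 of the range. The rule was applied to CPM and not to log2 CPM, on which a high tumor stands out less. Several members moved together, so the 18 sets are not separate. Groups of 2 and 3 tumors were not tested in this way.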

How the results depend on the processing

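Over the alternatives, 126 of 135 member values kept their sign and side of the threshold in oral KO, 132 of 144 in pancreatic KO, 106 of 135 between WT tissues and 173 of 180 in the tissue difference. In pancreatic KO, Grhl1, Grhl3, Ovol1 and Zfp750 were below 0 in all 16 alternatives each. Members called lower there numbered 3 with DESeq2, 3 with apeglm, 2 with basal keratinocyte scaling, and 0 to 1 without each tumor, the 1 being Zfp750 without WT tumor 4 (-1.0, adjusted p = 0.0485). Of all genes, 2.94%, 2.27%, 0.896% and 0.058% to 0.688% were called lower in these fits. All genes called were 389 higher and 726 lower with DESeq2 and 155 and 221 with basal scaling, in place of 83 and 72, and the extremes were 3 and 7 with protein-coding genes alone.

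In oral KO, 1 member, Tfap2a, was called lower in the fit of all tumors, against 5.77% of all genes. Zfp750 turned to 0.08 with basal scaling, which gave 2870 genes higher and 178 lower in place of 1968 and 646, to 0.43 without WT tumor 4 and to 0.23 without KO tumor 2. Without oral KO tumor 1, Klf4 turned to -1.33, Grhl1 to -0.02, Grhl3 to -0.37 and Ovol1 to -0.91. Over the oral tumors left out in turn, Klf4 spanned -1.33 to 1.11, Grhl1 -0.02 to 1.32, Grhl3 -0.37 to 1.79, Ovol1 -0.91 to 1.40 and Zfp750 -0.87 to 0.43. In pancreatic KO, Klf5 spanned -0.21 to 0.03, the latter without KO tumor 2.

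Between WT tissues, members called higher numbered 0 without a count filter, 3 with DESeq2, 0 with basal scaling and 0 to 6 without each tumor. Of all genes, 3.97%, 8.65%, 3.01% and 5.63% to 8.94% were called higher in these fits. Members called lower numbered 0, 1, 2 and 0 to 1, against 5.38%, 10.7%, 39.7% and 6.56% to 9.19% of all genes. Basal scaling turned Ovol1 to -0.33 and Tfap2a to -0.65. Grhl2 turned to 0.02 without oral WT tumor 2, 0.06 without pancreatic WT tumor 1 and 0.02 without pancreatic WT tumor 3, and was lowest at -0.15. In the tissue difference 0 members were called higher and 0 to 3 lower when 1 WT or pancreatic KO tumor was left out. Of all genes, 2.64% to 7.16% were called higher and 3.26% to 9.39% lower in these fits. Without oral KO tumor 1 Klf4 turned to 0.68 and Zfp750 to 0.07, from lows of -1.91 and -1.22 without other tumors. Basal scaling gave 148 genes higher and 2086 lower in place of 1254 and 1914. Except where fewer tumors or genes were used, the cause was not tested.

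The labels do not say that tumors of the same number are paired. Deviations of same-numbered tumors had r of -0.08 and -0.04 in oral KO, 0.32, -0.02 and -0.07 in pancreatic KO and -0.07 to 0.03 between WT tissues. These few values cannot settle whether they are. With the number as a replicate block, 2 members were called lower in pancreatic KO (Grhl1 at -1.41 and Grhl3 at -1.74). Of all genes, 1.63% were called lower in that fit, against 0.292% in the main fit. Zfp750 in oral KO turned to 0.07 with the block. Another scale moved 0 of 27 likeness values, and the longest transcript in place of all exons moved 12 of 36 mean TPM by more than 1 SD.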

Other observations

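The gene sets used as markers of other cell types gave the following values, which belong to no member. In pancreatic KO tumors Spp1, which encodes the secreted phosphoprotein osteopontin, was the most abundant duct and simple epithelial gene, at 6384 to 8198 CPM against 316.5 to 3153 CPM in WT. Its log2 fold change was 2.27 (SE 0.77) with an adjusted p of 0.218 by edgeR. Of the 10 genes of that list, 4 were higher and 6 lower, with a median of -0.09 and 0 called. Endothelial genes were higher in 12 of 12 cases, with a median of 0.52 and 0 called, and leukocyte genes had a median of -0.29 over 12 genes with 0 called. In oral KO tumors the basal keratin Krt15 fell by 3.11 (SE 0.73, adjusted p = 0.0398) and the matrix genes Dcn and Lum fell by 3.40 and 2.09 (adjusted p = 0.0196 and 0.0347), while the median over 12 fibroblast genes was 0.01. These calls were kept in 8 of 15 alternatives for Krt15, 11 for Dcn and 7 for Lum. The endothelial and leukocyte medians there were -0.06 and -0.35, with 0 called in either list. Between WT tumors 10 of 10 duct and simple epithelial genes were called higher in the pancreas, with Krt20 at 7.57, and 6 of 18 basal keratinocyte genes were called higher and 1, Krt15, lower.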
